A study of Drosophila melanogaster with 6 samples.

Results

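The genes described here encode nuclear subunits of respiratory complexes II, III, IV and V and cytochrome c in *Drosophila melanogaster*. They were taken by symbol: every gene whose symbol starts with Sdh followed by A, B, C or D, or with UQCR-, COX or ATPsyn, plus *RFeSP*, *Cyt-c1*, *Cyt-c-p* and *ox*. This gave 51 of the 17869 genes in the count tables, of which 33 are ubiquitous subunits (4 of complex II, 9 of complex III, cytochrome c, 8 of complex IV and 11 of complex V). The other 18 are paralogs whose symbol ends in L, or in L and a digit, a form that flies use mainly in the testis. They are given apart.

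RNA of whole second-instar (L2) larvae was sequenced in 3 *Pyk 23/31* mutant and 3 *Pyk 23/+* control samples, to ask how loss of pyruvate kinase changes larval gene expression. The mutants carry the CRISPR/Cas9 alleles *Pyk 23* and *Pyk 31* in trans, both of which are small deletions that shift the reading frame in the first coding exon. The controls carry *Pyk 23* over a wild-type chromosome, so both groups have the 23 allele and the controls have 1 working copy of *Pyk*. The mutants weigh less than the controls and die during this stage, and each library holds all tissues of the animal. In such bulk samples, fewer cells of a type and less RNA per cell cannot be told apart.

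Electrons from succinate enter the chain at complex II, which is also an enzyme of the citric acid cycle, and pass through ubiquinone to complex III, then by cytochrome c to complex IV, which reduces oxygen. Complexes III and IV pump protons across the inner mitochondrial membrane, and complex V, the ATP synthase, makes ATP as the protons flow back. In fly larvae, which grow fast on a sugar-rich diet and use glycolysis heavily, the pyruvate made by pyruvate kinase is one of the fuels that feed this chain. Complex II is built from nuclear genes alone, while complexes III, IV and V also hold subunits encoded by mitochondrial DNA.

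Between 12499172 and 16029304 read pairs were assigned to genes in the mutants and between 11249487 and 11784491 in the controls, on the strand that the library kit keeps. Levels are in CPM (counts relative to the TMM-scaled library size), and differences are log2 fold changes of mutant over control with their standard error (SE). Genotypes were compared by edgeR's quasi-likelihood test over the 11422 genes whose counts summed to 12 or more, adjusted over all of these, and a gene passed at an adjusted p of at most 0.05. *Pyk*, spelled *PyK* in the annotation, had 53.7, 44.0 and 57.7 CPM in the mutants, against 465, 442 and 419 CPM in the controls, which matched the labels. Replicate 3 of each genotype stood somewhat apart: over all tested genes its median absolute difference on the log2(CPM + 1) scale was 0.143 and 0.146 from the other mutants and 0.130 and 0.125 from the other controls, against 0.116 between mutant replicates 1 and 2 and 0.101 between control replicates 1 and 2. The samples are called biological replicates. The study states separate mating bottles for its metabolomics samples and not for these RNA samples, so the p-values reflect only how much these samples vary.

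In TMM-scaled CPM all 33 ubiquitous subunit genes were lower in each of the 3 mutants than in any of the 3 controls. This separation depends on the scaling. *SdhA* had 6793 of 16029304 assigned pairs in mutant replicate 1, a larger share than 4739 of 11616474 in control replicate 1. Of the 33 genes, 29 passed the test as lower, 0 passed as higher and 4 passed in neither direction (edgeR's quasi-likelihood test). None was higher at an unadjusted p under 0.05 either, nor with DESeq2 or limma-voom, which called 28 and 29 of them lower. Over all 11422 genes the test called 26% lower and 22.2% higher, and 31.5% had all mutants below all controls. These subunits are deeply counted, with 1278 to 62479 counts in a library, and among the 1437 genes with as many counts in all as *SdhD*, the least counted of them, the shares were 42% called lower and 46.6% with all mutants below all controls. The differences were small. Log2 fold changes ran from -0.55 for *RFeSP* to -0.13 for *COX7C* with a median of -0.27, which is 82.8% of the control level, and SEs were 0.054 to 0.092. The median over all genes tested was 0.015, and over the 1437 deeply counted genes it was -0.10. None of the 33 reached a 2-fold change, the size that 7.5% of all tested genes passed. Without replicate 3 of both genotypes 29 of the 33 also passed as lower, with a median of -0.25.

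**Figure D1:**
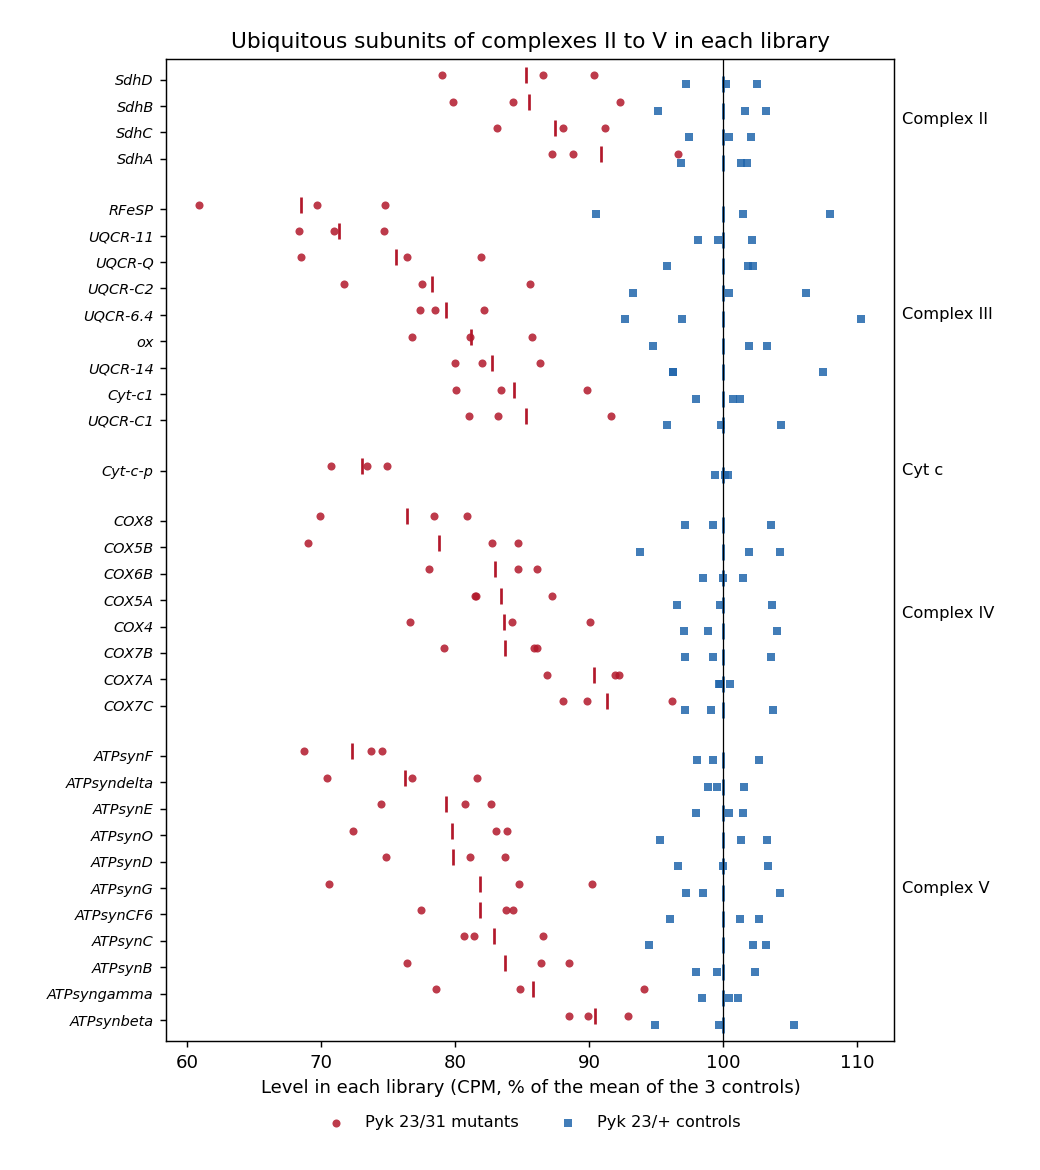
Level of each ubiquitous subunit gene in each library, as TMM-scaled CPM in percent of the mean of the 3 controls (x axis). Circles are the 3 *Pyk 23/31* mutants and squares the 3 *Pyk 23/+* controls, with a short line at each mean, and in every one of the 33 rows the circles lie left of the squares.

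**Figure D2:**
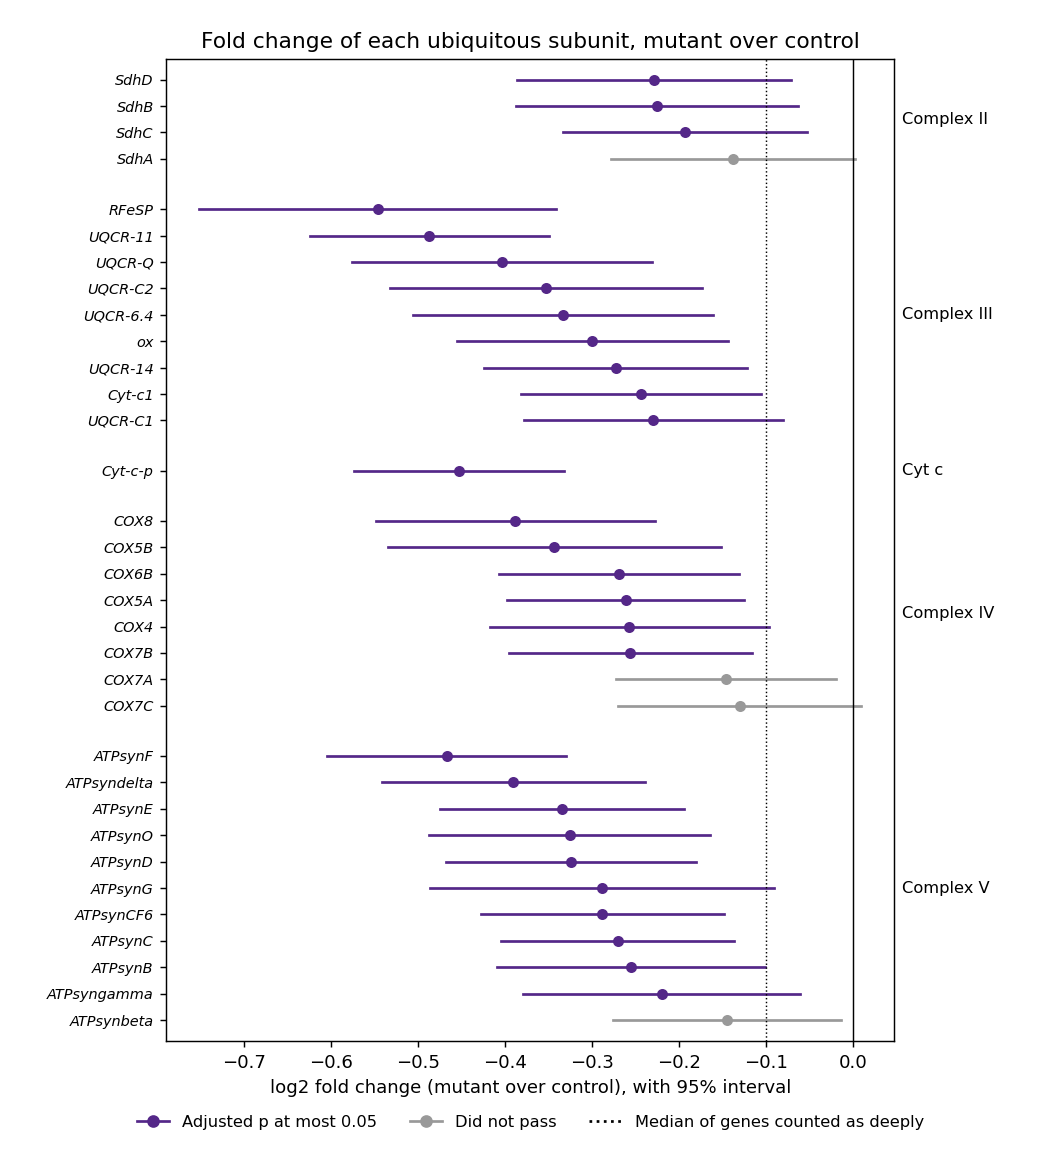
Log2 fold change of mutant over control with its 95% interval for the 33 ubiquitous subunit genes, by complex. The 29 genes that passed are purple and the 4 that did not are grey, the solid line is at 0, and the dotted line marks the median of the 1437 genes counted as deeply.

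The 3 mutants were not equally low. Mutant replicate 3 had the lowest level of the 3 mutants in 30 of the 33 genes, where among the 1437 deeply counted genes it was the lowest in 43.8%. Its median log2 difference from the control mean over the 33 genes was -0.37, against -0.22 in mutant replicate 1 and -0.25 in mutant replicate 2. Over the deeply counted genes the same medians were -0.11, -0.063 and -0.13 in mutant replicates 3, 1 and 2. Without mutant replicate 3 the median fold change of the 33 genes was -0.25 and 25 of them passed as lower. The controls showed no such order: control replicate 3 was the lowest control in 12 of the 33 genes, and the medians of the 3 controls lay between -0.011 and 0.011.

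Complex II, succinate dehydrogenase, had a median log2 fold change of -0.21, the nearest to 0 of the complexes. The differences between complexes were not tested. Its 4 genes summed to 866, 807 and 774 CPM in the mutants, against 904, 936 and 928 CPM in the controls, or 88.4% of the control mean. *SdhD* (FBgn0039112, 3R from 23759483 to 23760600, minus strand), which encodes a membrane anchor of the complex, had 108, 103 and 94.3 CPM in the mutants and 122, 119.6 and 116 CPM in the controls. This gave a log2 fold change of -0.23 (SE 0.070) at an adjusted p of 0.0224 by edgeR's quasi-likelihood test. The other anchor gene, *SdhC* (FBgn0037873, 3R from 11208887 to 11209849, minus strand), had 171, 165 and 156 CPM in the mutants and 188, 191 and 183 CPM in the controls. Its log2 fold change of -0.19 (SE 0.063) was the nearest to 0 among the 29 genes that passed, with an adjusted p of 0.0285 by edgeR. *SdhB* (FBgn0014028, 2R from 6807626 to 6809172, plus strand), the iron-sulfur subunit that hands electrons to ubiquinone, had 169, 154 and 146 CPM in the mutants and 174, 186 and 189 CPM in the controls, with a log2 fold change of -0.23 (SE 0.073). In this gene the highest mutant lay just below the lowest control.

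*SdhA* encodes the flavoprotein that oxidizes succinate, and it had 418, 384 and 377 CPM in the mutants against 419, 438 and 440.4 CPM in the controls. Its log2 fold change of -0.14 (95% interval -0.28 to 0.0027) did not pass (adjusted p of 0.0948, edgeR). The 3 calls in this complex turned on single libraries. Without mutant replicate 3 or without control replicate 2, 0 of the 4 genes passed, without mutant replicate 2 or control replicate 1, 1 passed, and without mutant replicate 1 all 4 did. Scaling by library totals alone also left 0 calls, with all 4 log2 fold changes below 0. The summed level of the complex lay lower in all mutants than in all controls.

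Complex III, the cytochrome bc1 complex, and cytochrome c had a median log2 fold change of -0.34, and all 10 genes passed as lower. The 9 complex III genes summed to 2457, 2364 and 2219 CPM in the mutants, against 2893, 2950 and 2892 CPM in the controls, or 80.6% of the control mean. *RFeSP* (FBgn0021906, 2L from 1612429 to 1614160, minus strand), the Rieske iron-sulfur protein that takes the first electron from ubiquinol, had 177, 164 and 144 CPM in the mutants and 214, 255 and 239.5 CPM in the controls. Its log2 fold change of -0.55 (SE 0.092) was the lowest of the 33 genes, with an adjusted p of 0.00101 by edgeR, and its SE was the widest of them. *UQCR-11* (FBgn0260008, 3L from 25120709 to 25126171, plus strand), a small acidic subunit at the cytochrome c side of the complex, had 156, 170 and 162 CPM in the mutants and 233, 224 and 227 CPM in the controls. The groups were far apart beside their spread, with a log2 fold change of -0.49 (SE 0.062) and an adjusted p of 0.000203 by edgeR.

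*Cyt-c-p* (FBgn0284248, 2L from 16719932 to 16722644, plus strand) encodes the cytochrome c of somatic tissues, the soluble carrier between complexes III and IV. It had 749, 734 and 706 CPM in the mutants and 993, 1003 and 1001 CPM in the controls. The 3 controls were nearly level. The log2 fold change was -0.45 (SE 0.054) and its adjusted p of 0.000147 was the smallest of all members (edgeR's quasi-likelihood test). The other complex III genes that passed were the small subunits *UQCR-Q* at -0.40, *UQCR-6.4* at -0.33, *ox* at -0.30 and *UQCR-14* at -0.27, the core proteins *UQCR-C2* at -0.35 and *UQCR-C1* at -0.23, and cytochrome c1, *Cyt-c1*, at -0.24. *UQCR-C1*, at 697, 633 and 616 CPM in the mutants and 729, 793 and 759.6 CPM in the controls, lost its call without control replicate 2 or without mutant replicate 2. The exons of *UQCR-14* lie wholly opposite those of *CG32576*, so only the strand-specific counts (3577 to 4306 in the mutants, 3428 to 3926 in the controls) measure it, and the unstranded count was 0 in every library.

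Ratios between genes within a library cannot be moved by any scaling of libraries. *RFeSP* was at 0.324, 0.325 and 0.296 of *Cyt-c1* in the mutants, against 0.349, 0.414 and 0.402 in the controls. *Cyt-c-p* was at 1.37, 1.45 and 1.45 times *Cyt-c1* in the mutants and at 1.62, 1.63 and 1.68 times in the controls. Neither ratio overlapped between genotypes. Both pairs were picked after their values were seen, so this separation does not test whether these genes kept one proportion. The shares of *RFeSP* and *UQCR-11* in the sum of complex III were lower in all mutants. That of *Cyt-c1* was higher in all mutants, at 22.2%, 21.4% and 21.9% against 21.1%, 20.9% and 20.6% in the controls. The shares of the other complex III genes overlapped between genotypes.

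Complex IV, cytochrome c oxidase, showed 6 of 8 nuclear genes lower, and the sum was 2414, 2391 and 2194 CPM in the mutants against 2787, 2768 and 2738 CPM in the controls, 84.4% of the control mean. *COX8* (FBgn0263911, 3L from 21538859 to 21539447, minus strand), one of the smallest subunits, had 145, 149 and 129 CPM in the mutants and 191, 183 and 179 CPM in the controls. It was the lowest of the complex, with a log2 fold change of -0.39 (SE 0.072) at an adjusted p of 0.0017 by edgeR. *COX6B* (FBgn0031066, X from 19740537 to 19744335, minus strand), which faces the intermembrane space, had 292, 287 and 265 CPM in the mutants and 344, 339 and 334 CPM in the controls, a log2 fold change of -0.27 (SE 0.062). It shares 9.38% of its exon length with *CG18809* on the same strand, and pairs there cannot be assigned to either gene. *COX5A* (FBgn0019624, 3R from 11819359 to 11820299, plus strand), a matrix-side subunit, had 363, 339.7 and 339 CPM in the mutants and 402, 416 and 432 CPM in the controls, with a log2 fold change of -0.26 (SE 0.061). Groups did not overlap in any of the 3 genes.

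*COX5B* at -0.34, *COX4* at -0.26 and *COX7B* at -0.26 passed as well. *COX4*, the largest nuclear subunit of the complex, had 370.1, 346 and 315 CPM in the mutants and 399, 428 and 406 CPM in the controls, and it did not pass without control replicate 2. The *COX5B* subunit binds zinc. *COX7A* had 377, 376 and 355 CPM in the mutants and 408, 411 and 408 CPM in the controls, and *COX7C* had 292, 313 and 287 CPM in the mutants and 337, 316 and 322 CPM in the controls. These small membrane subunits did not pass (*COX7A* -0.15, 95% interval -0.27 to -0.019, and *COX7C* -0.13, 95% interval -0.27 to 0.0097). The share of *COX7A* in the complex IV sum was higher in all mutants, at 15.6%, 15.7% and 16.2% against 14.6%, 14.9% and 14.9% in the controls. That of *COX7C* was 12.1%, 13.1% and 13.1% in the mutants and 12.1%, 11.4% and 11.8% in the controls, with replicate 1 of both genotypes level.

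Complex V, the ATP synthase, showed 10 of 11 genes lower, summing to 11095, 10556 and 10307 CPM in the mutants against 12945, 12692 and 12074 CPM in the controls, 84.7% of the control mean. *ATPsynF* (FBgn0035032, 2R from 24599088 to 24599821, minus strand), a small subunit of the membrane part, had 218, 220 and 203 CPM in the mutants and 289.5, 303 and 293 CPM in the controls. This was the lowest of the complex, with a log2 fold change of -0.47 (SE 0.061) at an adjusted p of 0.000249 by edgeR. *ATPsynE* (FBgn0038224, 3R from 14326947 to 14327735, plus strand), also of the membrane part, had 247, 253 and 228 CPM in the mutants and 299.9, 311 and 307 CPM in the controls, a log2 fold change of -0.33 (SE 0.063). Both are accessory membrane subunits outside the rotary core.

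*ATPsyndelta* (FBgn0028342, X from 10212970 to 10217393, plus strand) encodes a subunit of the central stalk and had 307, 289 and 265 CPM in the mutants and 372, 375 and 382 CPM in the controls, a log2 fold change of -0.39 (SE 0.068). Its exons lie opposite those of *CG2962* over 35.6% of their length, and that gene had 3803, 2901 and 315 counts in the mutants against 13, 9 and 670 counts in the controls. The opposite strand of *ATPsyndelta* took 43.3%, 44.0% and 7.88% of the pairs over it in the mutants, and 0.426%, 0.297% and 13.8% in the controls. The strand-specific counts used here leave those pairs out, and the log2 fold change from unstranded counts, which drop pairs that touch both genes, was -0.39 too.

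The genes of the peripheral stalk, which holds the catalytic head still, moved within a narrow range: *ATPsynO* at -0.33, *ATPsynD* at -0.32, *ATPsynCF6* at -0.29 and *ATPsynB* at -0.26, all lower. *ATPsynC*, the gene of the proton-carrying c-ring, was lower at -0.27 with 3846, 3582 and 3618 CPM in the mutants and 4584, 4543 and 4198 CPM in the controls. The membrane subunit gene *ATPsynG* was lower at -0.29, with 298, 317 and 248 CPM in the mutants and 366, 346 and 341 CPM in the controls, and lost its call without control replicate 1 or 2. The rotor shaft gene *ATPsyngamma* was lower at -0.22, with 767, 692 and 641 CPM in the mutants and 819, 824 and 803 CPM in the controls, and lost its call without control replicate 1 or 2 or mutant replicate 2 or 3. In both genes the highest mutant lay close to the lowest control. *ATPsynbeta*, the catalytic subunit, had 3818, 3637 and 3697 CPM in the mutants and 4329.8, 4098 and 3903 CPM in the controls and did not pass (-0.14, 95% interval -0.28 to -0.014, adjusted p of 0.0649 by edgeR). Without control replicate 3 it did pass, at -0.20. Its level relative to *ATPsynC* was 0.993, 1.015 and 1.022 in the mutants and 0.945, 0.902 and 0.930 in the controls, without overlap. Relative to *ATPsyngamma* it overlapped between genotypes, at 4.98, 5.26 and 5.77 in the mutants and 5.29, 4.97 and 4.86 in the controls. These pairs too were picked with values known.

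**Figure D3:**
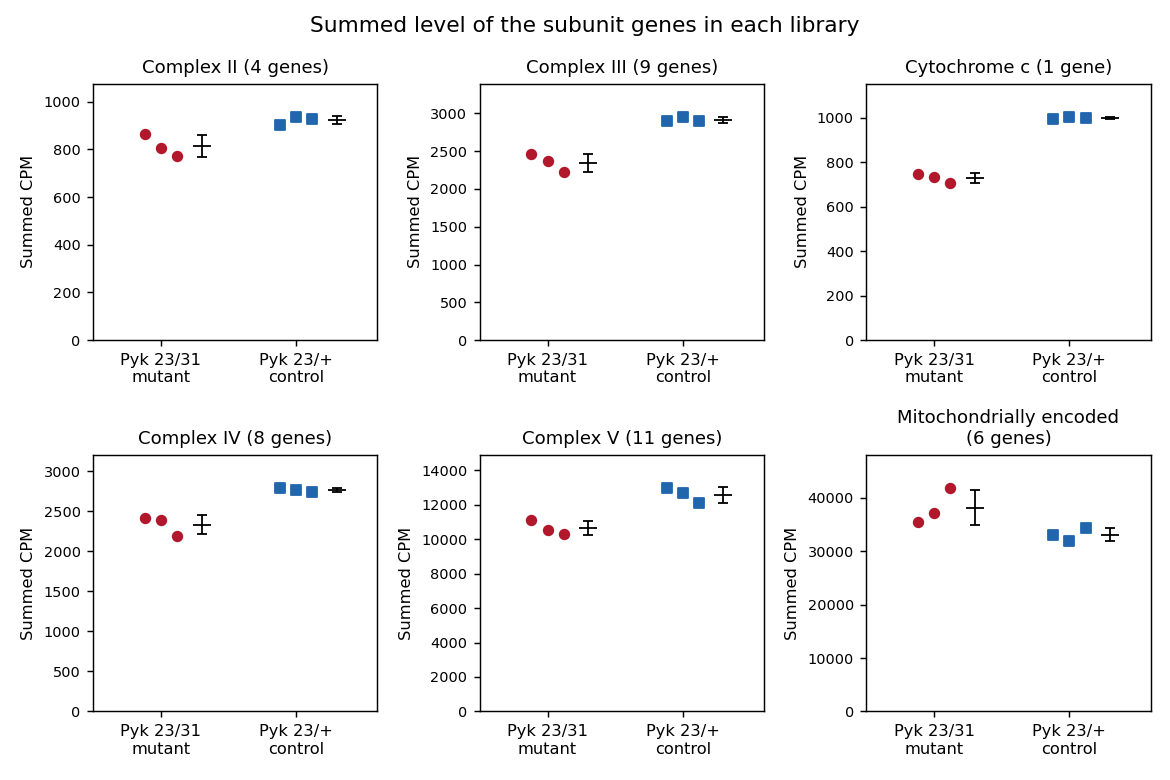
Summed CPM of the ubiquitous subunit genes of each complex, and of the 6 mitochondrially encoded genes of complexes III, IV and V, in each library (y axes from 0). Circles are the *Pyk 23/31* mutants, squares the *Pyk 23/+* controls, and bars give the mean and SD of 3 libraries. The 5 nuclear sums lie lower in all mutants, and the mitochondrial sum lies higher in all mutants.

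Together the 33 genes took 1.65% to 1.78% of all assigned pairs in the mutants and 1.92% to 2.01% in the controls. *ATPsynC* and *ATPsynbeta* alone gave 7399 ± 234 of 16877 ± 690 CPM in the mutants and 8552 ± 413 of 20168 ± 472 CPM in the controls (SD, n = 3 each). Without them the sum was 9478 ± 532 CPM in the mutants and 11616 ± 88.2 CPM in the controls, a ratio of 81.6%. Leaving out the most counted genes did not bring the ratio nearer to 100%.

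Levels of different genes were compared as CPM per kb of exon. *ATPsynC* was the highest, at 1971 ± 76.6 CPM per kb in the mutants and 2378 ± 113 in the controls, followed by *ATPsynbeta* at 1558 ± 38.6 in the mutants and 1723 ± 89.5 in the controls and by *Cyt-c-p* at 1071 ± 31.5 in the mutants and 1467 ± 7.60 in the controls (SD, n = 3 each). Among the 33 genes this order held in both genotypes, and no level of one of these genes overlapped that of the next by its SD. The ATP synthase alpha subunit gene *blw*, which the symbol rule leaves out, was at 1275 ± 83.0 in the mutants, above *Cyt-c-p*. In the controls it was at 1432 ± 49.4, within its SD of *Cyt-c-p*. One ATP synthase holds several copies of the c-ring and catalytic subunits, and cytochrome c is a carrier that moves between the complexes. Complex II had the lowest levels, with a median of 136 CPM per kb in the mutants and 154 in the controls. The median of complex III was 204 CPM per kb in the mutants and 257 in the controls, that of complex IV 355 in the mutants and 439 in the controls, and that of complex V 417 in the mutants and 502 in the controls. *ATPsyndelta* stood lowest of all, at 75.2 CPM per kb in the mutants and 98.6 in the controls, but its exons, joined over all transcripts, span 3817 bases, the most of the 33 genes, so its level per length depends on which transcripts are made. The log2 fold change showed little relation to level: across the 33 genes, which share their libraries and are not independent, Spearman's rho was 0.14 with CPM per kb in the controls, 0.30 with CPM and 0.22 with exon length.

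**Figure D4:**
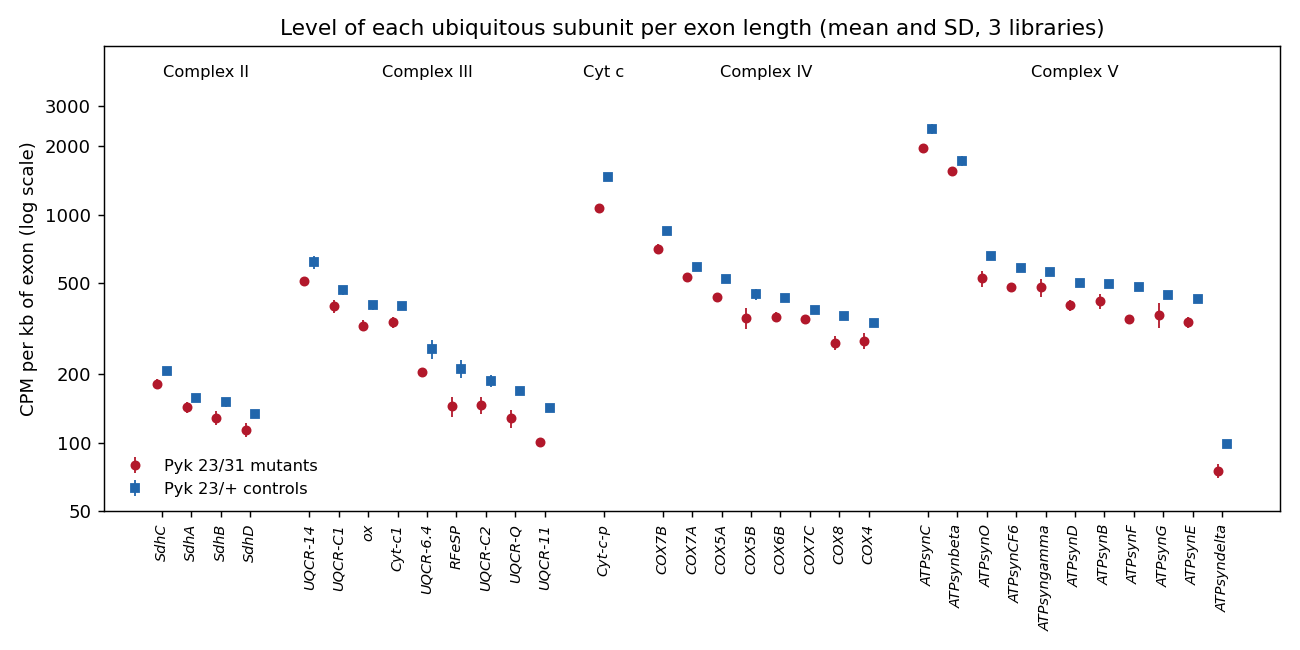
CPM per kb of exon (log scale) of each ubiquitous subunit gene, by complex, in the order of the control level. Circles are means of the 3 *Pyk 23/31* mutants and squares means of the 3 *Pyk 23/+* controls, with SD bars, and *ATPsynC*, *ATPsynbeta* and *Cyt-c-p* lead in both.

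The 18 paralogs were close to absent in both genotypes, at 75, 89 and 74 counts per library in the mutants and 52, 58 and 50 in the controls when summed. Against the ubiquitous genes this was 0.0263% to 0.0412% in the mutants and 0.0224% to 0.0245% in the controls. *SdhCL*, *UQCR-14L*, *UQCR-6.4L*, *COX6AL2*, *COX7AL* and *ATPsynCF6L* had 0 counts in every library, which allows a level of up to 0.187 to 0.267 CPM in a library (3 counts, counting error only). For *COX6AL2* this limit holds only for the rest of its exon length, since 67.0% of it is shared with *Ir75d* on the same strand, where pairs are assigned to neither gene. *SdhAL*, *COX4L*, *COX5BL*, *COX6CL*, *COX7AL2* and *ATPsynGL* had at most 3 counts in a library. Of the 6 with at least 12 counts, 0 passed edgeR's quasi-likelihood test, and 0 passed with DESeq2 or limma-voom, while 1, *SdhBL*, had an unadjusted p under 0.05.

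The most counted paralog, *ATPsynepsilonL*, a relative of the epsilon subunit, had 51, 30 and 39 counts in the mutants and 31, 39 and 24 in the controls, a ratio of 1.00 (95% counting interval 0.761 to 1.33) once depth is taken into account. *COX6AL*, a relative of *levy*, had 9, 10 and 14 counts in the mutants and 2, 4 and 7 in the controls, *UQCR-11L* had 6, 3 and 8 in the mutants and 7, 4 and 10 in the controls, and *COX7CL* had 2, 3 and 2 in the mutants and 3, 4 and 5 in the controls. *SdhBL* and *ATPsynbetaL* were counted mostly in mutant replicate 2. *SdhBL* had 5, 18 and 6 counts in the mutants and 3, 2 and 2 in the controls, a ratio of 3.26 (95% counting interval 1.40 to 8.82, adjusted p of 0.0794 by edgeR), and it passed as higher without mutant replicate 1. *ATPsynbetaL* had 0, 21 and 2 counts in the mutants and 0 in every control. It met the minimum of 12 counts only through mutant replicate 2. Its log2 fold change had a 95% interval of -7.3 to 19, and its adjusted p was 0.324 by edgeR. Testis genes were set beside these counts. The 12 spermatocyte markers summed to 66.8, 72.8 and 79.0 CPM in the mutants and 67.1, 74.1 and 68.5 CPM in the controls, nearly all of it from *bol*, and 1 of 7 tested was higher, namely *aly*, with 2, 9 and 5 counts in the mutants and 0, 0 and 1 in the controls. *Mst98Ca* was at 0 in every library. The 3 germ cell markers measured summed to 12.6 to 13.2 CPM in the mutants and 9.82 to 10.4 CPM in the controls, and *vas* and *zpg* were higher. Over all genes tested 22.2% were higher. With DESeq2 neither *aly* nor *vas* nor *zpg* passed, and each of them also lost its call without control replicate 1 (2.84, 0.33 and 0.55 on the log2 scale). The labels give no sex, and the part of these cells or of the sex ratio in the paralog counts was not tested.

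Nuclear subunits of the same complexes that carry other symbols were read in the same way. Of 6 such genes, 3 were lower, 3 did not pass and 0 were higher. At an unadjusted p under 0.05 and by limma-voom 4 were lower, and by DESeq2 3 were. None was higher by any of these. The ATP synthase epsilon subunit gene *sun* had 186, 199 and 169 CPM in the mutants and 254, 243 and 258 CPM in the controls, at a log2 fold change of -0.44 (SE 0.072). The fly gene of COX6A, *levy*, was lower at -0.43 and *cype*, the fly COX6C, at -0.23, a call lost without control replicate 1 (-0.25) or control replicate 2 (-0.22). The alpha subunit gene of ATP synthase, *blw*, encodes the protein that alternates with *ATPsynbeta* in the F1 head. It had 3075, 2708 and 2829 CPM in the mutants and 3189.8, 3349.7 and 3136 CPM in the controls. Its log2 fold change of -0.17 did not pass (adjusted p of 0.051, edgeR). It passed with limma-voom (-0.17) and, by edgeR, without control replicate 3 (-0.20) or mutant replicate 1 (-0.22). *Cyt-c-d*, the cytochrome c of the male germline, and *Cyt-c1L* stayed below 1 CPM in every library. Complex I, taken as the 40 genes with symbols starting with ND-, had 26 of 34 tested genes lower and 0 higher (edgeR's quasi-likelihood test, with 0 higher also at an unadjusted p under 0.05). Over all genes tested 26% were lower, and among the 1437 deeply counted genes 42%. The complex I sum was 4749, 4610.1 and 4358 CPM in the mutants against 5461, 5399 and 5332 CPM in the controls, 84.7% of the control mean.

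Among the subunits of complexes III to V that mitochondrial DNA encodes, calls were in the opposite direction. Of the 6 genes, 3 passed as higher, 0 as lower and 3 in neither direction, where 22.2% of all genes tested passed as higher. Their sum was 35419.8, 37210.3 and 41773 CPM in the mutants against 33075, 31927 and 34331 CPM in the controls. Cytochrome b, *mt:Cyt-b*, was at 5139, 5572 and 6119.5 CPM in the mutants and 4724, 4572 and 5009.7 CPM in the controls, a log2 fold change of 0.23 (SE 0.073) at an adjusted p of 0.0232 by edgeR. The oxidase subunit genes *mt:CoI* (0.23) and *mt:CoIII* (0.19) were also higher, while *mt:CoII* and *mt:ATPase6* were at 0.12 and 0.16. The last, *mt:ATPase8*, whose reading frame overlaps that of *mt:ATPase6*, stayed below 1 CPM in every library. Pairs that touch both genes are assigned to neither, so this value may fall far short of its level. Mutant replicate 3, the lowest of the mutants in the nuclear genes, was the highest in this sum. The count of higher genes was 1 without control replicate 1, mutant replicate 2 or mutant replicate 3, and 0 without control replicate 2. The libraries were made from poly(A) RNA, so these values also depend on how mitochondrial transcripts carry such tails, which was not tested.

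Genes that work on the complexes or beside them were counted from lists of known genes. Of 18 assembly factor symbols listed, 10 were matched and 9 tested: 7 were lower and 1 was higher. Over all genes tested 26% were lower and 22.2% higher. The copper chaperones *Cox17*, at -0.60 (SE 0.099), and *Scox*, at -0.47 (SE 0.078), which load complex IV, and *Cox10*, at -0.37 (SE 0.063), which makes its heme, had the smallest p. *Sirup*, an assembly factor of complex II, was higher, at 54.2, 90.2 and 75.6 CPM in the mutants and 32.3, 41.5 and 23.2 CPM in the controls (log2 fold change 1.18, SE 0.30), a call lost without any one of control replicates 1 and 3 and mutant replicates 2 and 3. With DESeq2 4 of the 9 were lower. Of the carriers that bring ADP and phosphate to the ATP synthase, *Mpcp1* was lower at -0.49 (SE 0.066) and *sesB*, the main ADP/ATP carrier of somatic tissue, at -0.23 (SE 0.059). *Ant2*, a less counted carrier gene, was higher at 0.55 (SE 0.16), a call lost without control replicate 1 (0.48) or mutant replicate 2 (0.52). Its span overlaps that of *sesB* on the same strand. Pairs that fall in exons of both are assigned to neither, so both levels may be partial. *Mpcp2* did not pass at -0.061.

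Known regulators of mitochondrial genes, whether in the nucleus or in mitochondrial DNA, passed in both directions. Of 7, 3 were lower, 1 was higher and 3 did not pass, beside 26% lower and 22.2% higher over all genes tested. The fly PGC-1 gene *srl* had 106, 104 and 100.3 CPM in the mutants and 170.0, 162 and 173 CPM in the controls, a log2 fold change of -0.71 (SE 0.062) at an adjusted p of 3.56e-05 by edgeR. The mitochondrial transcription factor gene *TFAM* was lower at -0.60 (SE 0.084) and *Dref* at -0.29 (SE 0.071), while *ewg*, the fly NRF-1, was higher at 0.51 (SE 0.090). *ERR*, a nuclear receptor that drives glycolytic genes in the larva, did not pass at 0.19 (95% interval -0.0067 to 0.39).

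Tissue markers were read in the same way. Muscle, a tissue rich in mitochondria, had 7 of 13 marker genes lower and 0 higher by edgeR, and 0 higher by DESeq2, with a summed level of 58158 to 64595 CPM in the mutants and 65839 to 68277 CPM in the controls, 92.3% of the control mean, and none of the 13 was at 0. Its median log2 fold change was -0.16, and the count was 4 without control replicate 1, control replicate 2 or mutant replicate 2 and with RLE or library totals for scaling. Among all genes counted as deeply as the subunits, 42% were called lower. The muscle markers were not alike: *sls* (0.056) and *Prm* (0.027) lay above 0, and *Mhc* (-0.0070) and *up* (-0.041) just below it. Midgut markers had 5 of 6 higher and 0 lower, with 553 to 672 CPM in the mutants and 373 to 389 CPM in the controls, and none of them at 0. Over all genes tested 22.2% were higher. The part of muscle or midgut in the lower subunit levels was not tested.

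**Figure D5:**
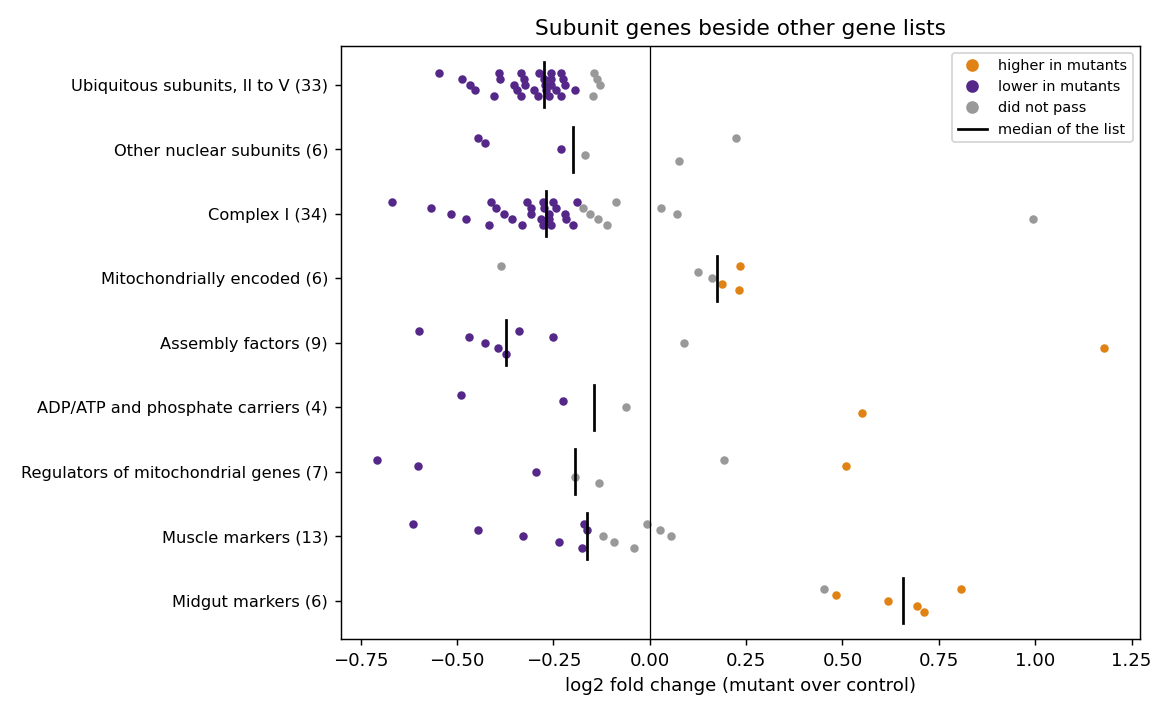
Log2 fold change of mutant over control (x axis) for each tested gene of the ubiquitous subunits and of 8 other lists, with the number of tested genes in brackets. Orange points were higher, purple points lower and grey points did not pass, and black bars are medians, at -0.27 for the 33 subunits, -0.27 for complex I, 0.17 for the mitochondrially encoded genes, -0.16 for muscle and 0.66 for midgut markers.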

How the data were processed

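RNA-seq counts of whole L2 larvae were read for 3 *Pyk* 23/31 mutant and 3 *Pyk* 23/+ control samples, grouped by the genotype in their labels. The authors deposited raw counts of read pairs per gene in the layout that STAR writes, and the submitters' notes name STAR and BDGP6, for which no version is given in the sources used here. According to its methods section, the study took another route, Kallisto with tximport and DESeq2, which did not make these counts. The counts of the strand that a TruSeq Stranded mRNA kit keeps were used. The opposite strand held 2.53% to 2.58% of assigned pairs, and 486 rows not named by a gene (0.0329% to 0.0461%) were left out. Pairs that map to several places (3.97% to 4.72%) or to more than one gene (2.25% to 2.35%) are not counted, so near-identical or overlapping genes can lose pairs. Symbols, places and exon lengths come from the BDGP6.54 annotation.

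Genotypes were compared with edgeR 4.0.16 in R 4.3.3 (the quasi-likelihood test with its robust option, after TMM scaling, with Benjamini-Hochberg adjustment over all genes with at least 12 counts), and tested on simulated data. The count minimum, the adjusted p of 0.05 and the 2-fold size follow the study's methods. TMM factors were 0.973 to 1.03. SEs are the log2 fold change over the root of the F statistic, and 95% intervals use the t distribution of the fit. Depth per library was 11249487 to 16029304 assigned pairs, and counting intervals (exact binomial) and floors of 3 counts reflect counting alone, as PCR duplicates do not count separate molecules. Values per library are given for the 3 lowest p in each direction and complex (cytochrome c with complex III), for genes whose call changed without 1 library and for paralogs, and companion lists are given as counts with their smallest p. The members and all lists were chosen with earlier results of these data known. Alternatives were DESeq2 1.42.0, limma 3.58.1 (voom), other scalings and filters, unstranded counts, a replicate block and leaving out libraries. A planned search of promoter motifs was not run, and no sequences were used. No permutation test was used, as 3 samples a genotype allow no p under 0.1.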

Additional observations from a re-analysis of the deposited data

How the results depend on the processing

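Under 15 alternatives the 33 ubiquitous genes gave 494 log2 fold changes, each of them below 0, with the highest at -0.07. Of the 29 calls, 22 passed under every alternative in which the gene was tested. The genes that lost a call in some were *SdhB*, *SdhC*, *SdhD*, *UQCR-C1*, *COX4*, *ATPsynG* and *ATPsyngamma*. *SdhA* passed without mutant replicate 1, and *ATPsynbeta* without control replicate 3 alone and without both replicates 3. *UQCR-14* is among the 22 but has no unstranded value, so it was not tested with unstranded counts. The count of members lower, 29, ranged from 22 to 30 when 1 library was left out, and by complex from 0 to 4 (II), 9 to 10 (III with cytochrome c), 5 to 6 (IV) and 8 to 11 (V). The count higher ranged from 0 to 1 over all members and in complex II, where *SdhBL* passed. With library totals for scaling 0 members of complex II were lower and the median of all genes was 0.072. That scaling, which equals the share of assigned counts, moved the log2 ratio of the summed level to -0.25 for complex III, -0.40 for cytochrome c, -0.19 for complex IV and -0.18 for complex V, and unstranded counts moved it to -0.40 for cytochrome c, -0.19 for complex IV and -0.18 for complex V, against -0.31, -0.45, -0.24 and -0.24 with TMM. Unstranded counts were also scaled by library totals. Leaving out 1 library gave -0.22 to -0.14 (II), -0.35 to -0.27 (III), -0.47 to -0.43 (cytochrome c), -0.27 to -0.20 (IV) and -0.27 to -0.22 (V). *Pyk* stayed between -3.22 and -2.99.

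Same-numbered samples did not deviate together (correlations of -0.29, -0.10 and -0.31 across 11422 genes). From 3 samples a genotype this cannot tell whether the numbers pair them, and the labels do not say. With a replicate block 29 members were lower and 1 was higher, *ATPsynbetaL* of complex V, whose counts came almost wholly from mutant replicate 2. Depth limits the paralogs, of which 12 had fewer than 12 counts in all and were not tested.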
